A study of Mus musculus with 4 samples.

Results

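The genes described here are 9 regulators of programmed cell death, namely Fasl, Fas, Casp8, Cflar, Bcl2, Bcl2l1, Mcl1, Bcl2l11 and Bcl2l15. They were taken by gene symbol from the 23238 symbols measured in lung, and were chosen by their log2 levels in these same libraries, so their differences are given as descriptions and none was tested. All 9 had a row in every library and all 9 passed the filter on low values, a mean normalized read count of at least 4, as did 15164 rows in all.

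RNA was sequenced from the lungs of male CDF1 mice, a hybrid strain with a BALB/c parent, in 4 libraries with 1 library for each of 4 groups. The normal control, E(-)T(-), neither ran nor carried tumor cells, and the normal exercise group, E(+)T(-), ran on a treadmill at high intensity. The cancer control, E(-)T(+), rested after CT26 cells, a murine colorectal carcinoma line, had been injected into the tail vein, and the cancer exercise group, E(+)T(+), had both the cells and the treadmill. The labels give postnatal day 28 and 10 mice for each group, but day 28 is also the age at which the mice were bought. It is not stated whether a library holds the RNA of 1 mouse or of a pool, although the study took calf muscle from a representative animal per group and analysed the lungs in a similar way. A lung seeded with carcinoma cells holds RNA of tumor and host together, and both are mouse RNA.

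Cells die by apoptosis through a pair of routes. In the death receptor route a ligand such as FASL engages a receptor such as FAS, which gathers an adaptor and caspase-8, and the protein c-FLIP, encoded by Cflar, competes with caspase-8 there. In the mitochondrial route, BH3-only proteins such as BIM (Bcl2l11) are held by pro-survival proteins such as BCL2, BCL-XL (Bcl2l1) and MCL1, and once freed they let BAX and BAK open the outer membrane.

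Levels are the deposited log2(normalized read count + 1), and the reads behind them were recovered from those values. A difference is the first-named library minus the second on that log2 scale, so 1 is 2-fold. The interval beside it is the 95% exact (Clopper-Pearson) interval of the read ratio, scaled by library size, and it covers counting error only, since PCR copies are not separate molecules. With 1 library per group no replicate spread exists, and an interval that leaves out 0 separates the libraries, not the conditions. The comparisons were exercise without tumor (normal exercise over normal control), tumor without exercise (cancer control over normal control), exercise with tumor (cancer exercise over cancer control) and tumor with exercise (cancer exercise over normal exercise). Each library enters 2 of the 4 comparisons, so their values are set side by side and not correlated.

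The libraries differed widely in what tissue they held. The 11 alveolar epithelial markers, which check the lung label, were detected in all 4 libraries and summed to a normalized count of 232164.5 in the normal control, 281450.5 in the normal exercise, 35376.1 in the cancer control and 188861.9 in the cancer exercise library. The cancer control library stood apart, with 10 of 11 alveolar and 10 of 10 endothelial markers at least 2-fold below the normal control and 13 of 13 proliferation markers at least 2-fold above it, against 25.7% of all filtered rows lower and 20.6% higher. Hemoglobin transcripts took between 1.43% of reads in the cancer control and 31.43% in the cancer exercise library. Between 9354511 and 13368126 reads per library were assigned, and 3 reads, taken as the floor for a count of 0, stood for 0.224 to 0.321 CPM (reads scaled to a fixed library total). Scaling by read totals in place of the deposited scaling put the median difference of all filtered rows at -0.59 for exercise with tumor, -0.41 for tumor with exercise, -0.08 for exercise without tumor and 0.07 for tumor without exercise. In bulk RNA, fewer cells of a type and less RNA per cell cannot be told apart.

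Start regions are shown for the 3 genes on which the results below turn most, namely Cflar, Fas and Bcl2l15. Each is the 250 bases before the RefSeq transcription start on build GRCm38.p6, plus strand, read 5′ to 3′, and capitals mark matches to a searched motif on either strand. The stretches are chr1:58711241-58711490 for Cflar, chr19:34290409-34290658 for Fas and chr3:103832446-103832695 for Bcl2l15, where GENCODE places the gene's start inside this stretch, at 103832601.

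Cflar: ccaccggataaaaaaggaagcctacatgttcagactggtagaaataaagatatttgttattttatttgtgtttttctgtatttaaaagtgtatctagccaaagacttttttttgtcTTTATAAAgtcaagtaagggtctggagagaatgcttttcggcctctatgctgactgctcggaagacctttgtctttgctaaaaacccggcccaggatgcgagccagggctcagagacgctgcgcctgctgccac
Fas: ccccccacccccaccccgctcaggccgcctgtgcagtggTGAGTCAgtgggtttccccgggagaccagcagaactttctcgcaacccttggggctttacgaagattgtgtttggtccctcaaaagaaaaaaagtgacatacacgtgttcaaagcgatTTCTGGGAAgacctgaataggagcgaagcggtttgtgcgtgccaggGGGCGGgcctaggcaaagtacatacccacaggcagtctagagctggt
Bcl2l15: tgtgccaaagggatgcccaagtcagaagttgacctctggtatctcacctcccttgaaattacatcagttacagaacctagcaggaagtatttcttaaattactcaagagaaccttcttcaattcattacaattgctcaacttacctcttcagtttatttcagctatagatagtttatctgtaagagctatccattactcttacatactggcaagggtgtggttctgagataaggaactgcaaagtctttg

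The motifs searched, on both strands and with overlaps counted, were the TATA box TATAAA, the CCAAT box CCAAT, the GC box GGGCGG, the AP-1 site TGANTCA, the STAT site TTCNNNGAA and the NF-kB consensus. The Cflar region held the TATA box letters as 2 overlapping matches, one on each strand. The Fas region held 1 AP-1 site, 1 STAT site and 1 GC box. The Bcl2l15 region held none of the 6, which says only that these letters were not in this window. Among 32851 start regions in the same table, 12.4% held the TATA box, 32.7% the GC box, 6.75% the AP-1 site and 7.02% the STAT site. The shares were 33.8% for CCAAT and 3.9% for the NF-kB consensus. G and C made up 42.8% of the Cflar region, 56.4% of the Fas region and 38.8% of the Bcl2l15 region, against a median of 52.4%. A match is a run of letters and not a shown binding site.

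Fasl, the ligand, was close to the lower limit of these libraries. It had 19 reads in the normal control, 5 in the normal exercise, 2 in the cancer control and 0 in the cancer exercise library, with log2 levels of 4.12, 2.48, 1.70 and 0.11 in that order. The normal control was the highest library, and the other neighbours in the order were not separated by counting error. The exercise difference without tumor was -1.64 (-3.59 to -0.34), and the tumor difference without exercise was -2.42 (-6.03 to -0.83). With a pseudocount of 4 they were -1.25 and -1.71, and the second rests on 2 reads in the cancer control, under the 3-read floor. Against 5 reads in the normal exercise library, the 0 reads of the cancer exercise library, set at the 3-read floor, were at least 1.31-fold lower, but the exact interval reached 0.47 on the log2 scale, so this difference was not detectable at this depth. The cancer pair had 2 and 0 reads, and no fold is given.

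Fasl is known from cytotoxic lymphocytes, and the 12 cytotoxic and NK cell markers were lower in sum in both tumor-bearing libraries as well. They summed to 2898.5 in the normal control, 1984.6 in the normal exercise, 918.8 in the cancer control and 972.7 in the cancer exercise library. Of these 12 markers, 9 were at least 2-fold lower in the cancer control than in the normal control and 2 were higher, the granule proteins Prf1 (15 against 1 read) and Gzmb (117 against 50 reads), beside 25.7% and 20.6% of all filtered rows. Klrb1c was at 0 reads in the cancer exercise library. The 12 T cell markers found among the rows summed to 835.6, 711.2, 135.6 and 651.2 in the order used above, with Cd3g at 0 reads in the cancer control. Their part in the Fasl values was not tested.

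Fas, the receptor, was highest where its ligand was not detected. Its reads were 260 in the normal control, 330 in the normal exercise, 104 in the cancer control and 646 in the cancer exercise library, and its log2 levels were 7.79, 8.25, 6.85 and 9.56. All 4 libraries were separated from their neighbours in the order, with the cancer control lowest. With tumor the exercise difference was 2.72 (2.43 to 3.04), or 2.11 by read totals, and without tumor it was 0.46 (0.22 to 0.70). The tumor difference had opposite signs in the resting and running pairs, at -0.95 (-1.30 to -0.62) and 1.31 (1.12 to 1.51), the second falling short of 2-fold by read totals (0.90).

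Casp8, the initiator caspase that the receptor complex activates, spanned 0.96 on the log2 scale. It had 156 reads in the normal control, 216 in the normal exercise, 137 in the cancer control and 87 in the cancer exercise library, for log2 levels of 7.06, 7.64, 7.24 and 6.68. The normal exercise library was the highest, and the resting pair was not separated from each other (0.18, interval -0.16 to 0.52). Exercise differences were 0.58 (0.28 to 0.89) without tumor and -0.56 (-0.97 to -0.16) with tumor, again of opposite sign, and the second was -1.16 by read totals. The tumor difference among runners was -0.96 (-1.34 to -0.60), just short of the 2-fold limit, and was past it by read totals (-1.37) and by totals without hemoglobin genes (-1.05).

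Cflar, the inhibitor at the same complex, was split by tumor and not by exercise in the tumor-bearing pair. Its reads numbered 2367 in the normal control, 2799 in the normal exercise, 833 in the cancer control and 713 in the cancer exercise library. The log2 levels were 10.98, 11.33, 9.84 and 9.71, so both tumor-bearing libraries lay below both tumor-free ones. The tumor difference was -1.14 (-1.26 to -1.03) at rest and -1.62 (-1.75 to -1.51) among runners. Exercise gave 0.35 (0.27 to 0.43) without tumor and -0.13 (-0.28 to 0.01) with tumor, and counting error did not separate the tumor-bearing pair. Scaled by read totals the last value was -0.74, beside the median of -0.59 over all rows.

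**Figure D1:**
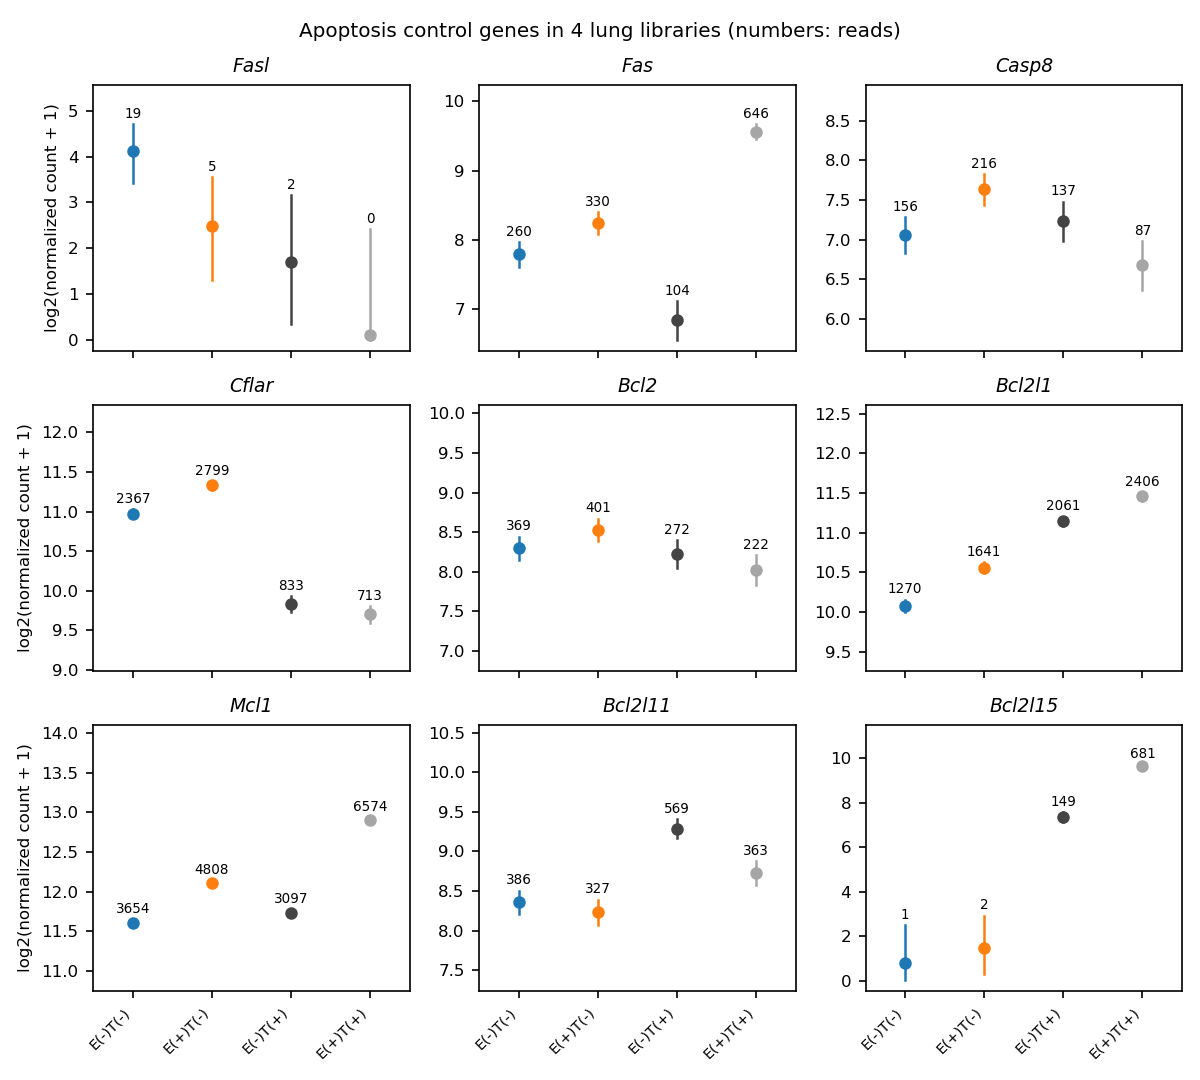
Levels of the 9 genes, as log2(normalized read count + 1) on the y axis, in the 4 lung libraries on the x axis. Points are single libraries with their reads printed above, bars are 95% exact Poisson intervals for counting error, the y range differs between panels, and Cflar is lower in both T(+) libraries while Bcl2l15 is at 1 and 2 reads in the T(-) libraries and at 149 and 681 in the T(+) ones.

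The low Cflar level in the cancer exercise library came with lung marker sums much nearer to the tumor-free libraries than those of the cancer control. The 10 endothelial markers summed to 34685.7 in the normal control, 34209.1 in the normal exercise, 3033.5 in the cancer control and 23179.8 in the cancer exercise library. Single markers differed from the sums. Against the normal exercise library, 4 of the 10 were past 2-fold lower in the cancer exercise library and 1 higher. Of the 11 alveolar markers, 2 were lower and 0 higher, beside 13.0% and 14.9% of all filtered rows. The Cflar levels of the tumor-bearing pair, 9.84 and 9.71, were not separated. The part of lung cell content in the Cflar values was not tested.

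Cflar lies at chr1:58711508-58758884 on the plus strand (GENCODE M21, build GRCm38), and Casp8 lies 36489 bases further on the same strand at chr1:58795374-58847503. By level, both neighbours were highest in the normal exercise and lowest in the cancer exercise library. Their orders differed only in the resting pair. Cflar was at 10.98 in the normal control and 9.84 in the cancer control. Casp8 was at 7.06 and 7.24 there, which counting error did not separate. GENCODE gives Cflar 13 transcripts, of which 4 are protein coding with 4 different ends, and a library primed at the poly(A) tail reads only near an end. The study also measured Cflar by RT-qPCR, and its primer pair is shown because it reads another stretch of the same transcripts.

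Forward primer: ggcagaggcaagatagccaa
Reverse primer: atcttgctccttggctggac

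Both primers matched all 4 coding transcripts and none of the other 9, with a product of 178 bases that spans chr1:58729135-58732267 in the genome. The product lies between 956 and 5855 bases from the transcript ends, so the reads described here and that product come from different places. How the coding transcripts shared the reads was not tested.

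Bcl2, the first of the pro-survival genes, spanned 0.50 on the deposited log2 scale. Its reads were 369 in the normal control, 401 in the normal exercise, 272 in the cancer control and 222 in the cancer exercise library, with log2 levels of 8.30, 8.53, 8.22 and 8.03. The normal exercise library was highest and the other neighbours were not separated on that scale. The largest of its 4 differences was the tumor difference among runners, -0.50 (-0.75 to -0.27), or -0.91 by read totals. The exercise difference with tumor was -0.20 (-0.46 to 0.06), and by read totals it was -0.81, beside the median of -0.59 over all rows. Bcl2 is a gene that lymphocytes use, and the 10 B cell markers found among the rows summed to 1209.7 in the normal control, 1151.6 in the normal exercise, 35.7 in the cancer control and 379.4 in the cancer exercise library. The Bcl2 difference between the cancer control and the normal control was -0.07 (-0.30 to 0.16), or 0.04 by read totals. The part of lymphocyte content in the Bcl2 values was not tested. An other-strand gene, D630008O14Rik, shares exon bases with Bcl2, and the use of strand in counting is not given in the sources used here.

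Bcl2l1, which encodes BCL-XL, was higher in each running library than in its resting partner and in each tumor-bearing library than in its tumor-free partner, although scaling by read totals turned the exercise difference with tumor to -0.29. It had 1270 reads in the normal control, 1641 in the normal exercise, 2061 in the cancer control and 2406 in the cancer exercise library, at log2 levels of 10.08, 10.56, 11.14 and 11.46. Each library was separated from the next. The tumor differences were 1.06 (0.96 to 1.17) at rest and 0.90 (0.81 to 0.99) among runners (0.49 by read totals), and the exercise differences were 0.48 (0.38 to 0.59) and 0.32 (0.23 to 0.40). BCL-XL is known to keep erythroid cells alive, and the 10 erythroid markers found summed to 1276483.8 in the normal control, 1310525.8 in the normal exercise, 118931.3 in the cancer control and 3857698.7 in the cancer exercise library. The erythroid sum was lowest in the cancer control, where Bcl2l1 was second highest, and the part of erythroid content in its values was not tested.

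Mcl1, a short-lived pro-survival protein on which neutrophils depend, was the most abundant of the 9 by reads. It had 3654 reads in the normal control, 4808 in the normal exercise, 3097 in the cancer control and 6574 in the cancer exercise library, with log2 levels of 11.60, 12.11, 11.73 and 12.91. The cancer exercise library was highest, by 0.80 (0.75 to 0.85) over the normal exercise library and by 1.18 (1.12 to 1.24) over the cancer control (0.57 by read totals). The exercise difference without tumor was 0.51 (0.45 to 0.57), and the tumor difference at rest was 0.13 (0.06 to 0.20). The 11 neutrophil markers found summed to 4121.5, 12581.8, 12419.7 and 214774.6 in the order used above, with none at 0 reads. Mcl1, Fas, Bcl2l1 and Bcl2l15 were all highest in the cancer exercise library, which had the highest neutrophil sum and also the highest erythroid sum. The part of neutrophil or erythroid content in these genes was not tested.

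Bcl2l11 encodes BIM, the BH3-only protein that binds the pro-survival proteins above. Its reads were 386 in the normal control, 327 in the normal exercise, 569 in the cancer control and 363 in the cancer exercise library, and its log2 levels were 8.36, 8.24, 9.29 and 8.73. On the deposited scale both tumor-bearing libraries lay above both tumor-free ones, which were not separated from each other (-0.13, interval -0.34 to 0.09). The tumor difference was 0.92 (0.74 to 1.12) at rest and 0.50 (0.28 to 0.72) among runners, and the exercise difference with tumor was -0.55 (-0.75 to -0.36), or -1.16 by read totals. By read totals the tumor difference among runners was 0.09. Bcl2l11 was the only 1 of the 9 with its highest deposited level in the cancer control.

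Bcl2l15, a less studied relative of BCL2, had by far the widest range of the 9, at 8.83 on the log2 scale. It had 1 read in the normal control, 2 in the normal exercise, 149 in the cancer control and 681 in the cancer exercise library, with log2 levels of 0.81, 1.48, 7.36 and 9.64. The tumor-free libraries were at or under the 3-read floor and no fold is given between them. The log2 read ratio of cancer control to normal control was 7.59 (5.09 to 12.90), and that of cancer exercise to normal exercise was 8.76 (6.90 to 11.81). The matching level differences, 6.56 and 8.16, rest on 1 and 2 reads in the lower library and were 5.14 and 7.11 with a pseudocount of 4. The exercise difference with tumor was 2.28 (2.03 to 2.55), or 1.67 by read totals. The gene lies at chr3:103832601-103854618 on the plus strand, and Gm43064 shares exon bases with it on the same strand, though no other annotated exon overlaps the stretch just before its 3′ end.

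The neutrophil sum was 12581.8 in the normal exercise and 12419.7 in the cancer control library, while Bcl2l15 had 2 and 149 reads there. The members of that list differed. S100a8 and S100a9 hold most of both sums. They had 4679 and 7143 reads in the normal exercise and 3567 and 3818 in the cancer control library. In the same order of libraries, Ltf had 123 and 1560, Il1r2 84 and 371, Mmp8 208 and 409 and Mmp9 330 and 604. The rest of the list lay closer together, with log2 levels of 7.21 and 6.98 for Cxcr2 and 4.83 and 5.17 for Csf3r. Ngp was at 7.34 and 7.39, Camp at 6.13 and 6.04 and Retnlg at 9.31 and 9.47. Of the 13 intestinal epithelial markers, chosen because CT26 is a colorectal line, Cdx2 and Lgals4 were at 0 reads in all 4 libraries, and only 6 of 13 passed the filter. Their sums were 2277.4 in the normal control, 2426.4 in the normal exercise, 3971.0 in the cancer control and 5269.6 in the cancer exercise library. The members did not move together. Krt20 had 0, 46, 2696 and 476 reads in that order and makes up most of the cancer control sum, while Krt8 had 990, 1062, 349 and 1907, Krt18 had 908, 929, 377 and 1560, and Epcam had 767, 584, 176 and 553. Of the 6 that passed the filter, 2 were higher and 2 lower past 2-fold in the cancer control than in the normal control, beside 20.6% and 25.7% of all filtered rows. The part of either cell type in the Bcl2l15 values was not tested.

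Counts of the 9 genes past the 2-fold limit follow from how they were chosen, and nothing is read from them. Without tumor, exercise put 1 of 9 past 2-fold (0 higher, 1 lower), against 9.98% of the 15164 filtered rows (5.28% higher, 4.7% lower). At rest, the tumor put 4 of 9 past it (2 higher, 2 lower), against 46.2% of rows (20.6% higher, 25.7% lower). With tumor, exercise put 4 of 9 past it (3 higher, 1 lower), against 42.0% of rows (24.3% higher, 17.7% lower). The 1 lower gene there is Fasl at 0 against 2 reads, and with a pseudocount of 4 the count was 3. Among runners, the tumor put 4 of 9 past it (2 higher, 2 lower), against 27.8% of rows (14.9% higher, 13.0% lower). Fasl is again among the lower genes, at 0 against 5 reads, and with a minimum mean of 20, which drops it, the count was 3. Just short of the limit were Casp8 at -0.96, Fas at -0.95 and Bcl2l11 at 0.92 in the tumor comparisons, and just past it were Bcl2l1 at 1.06 and Cflar at -1.14.

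The median log2 difference of the 9 was 0.46 for exercise without tumor, 0.13 for tumor without exercise, -0.13 for exercise with tumor and 0.50 for tumor with exercise. The same medians over all filtered rows were 0.00, -0.03, 0.01 and 0.00. Intervals that left out 0 were found for 7, 7, 6 and 8 of the 9 in that order, against 43.9%, 76.1%, 71.9% and 64.4% of filtered rows.

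**Figure D2:**
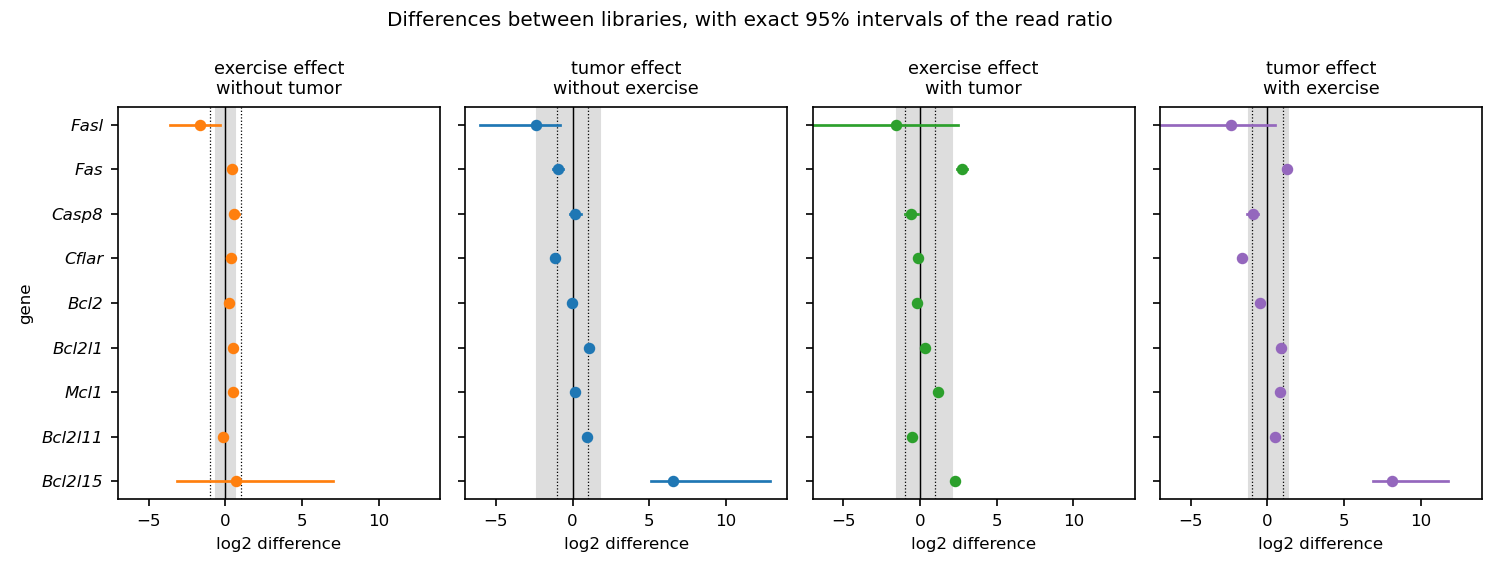
Log2 differences of the 9 genes in the 4 comparisons, with 95% exact intervals of the read ratio as lines, cut off at the edges of the axis. Dotted lines mark the 2-fold limit, and the shaded band runs from the 10th to the 90th percentile of the 15164 filtered rows. Fas lies outside it for exercise with tumor (2.72) and Cflar for tumor with exercise (-1.62). The points of Bcl2l15 and Fasl lie outside it in all 4 comparisons. Bcl2l15 for exercise with tumor (2.28) has 149 and 681 reads. Their other points rest on few reads in at least 1 library, where the intervals are widest. Bcl2l15 for exercise without tumor has 1 and 2 reads, and Fasl for exercise with tumor has 2 and 0. No fold is read from these 2 points, which were 0.28 and -0.62 with a pseudocount of 4.

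The wider pathway was described with 8 lists holding 72 apoptosis genes besides the 9, of which 68 passed the filter. Exercise without tumor had 3 higher and 3 lower past 2-fold (8.8% of the 68), tumor without exercise 20 and 16 (52.9%), exercise with tumor 17 and 16 (48.5%), and tumor with exercise 15 and 7 (32.4%). These shares stood near the 9.98%, 46.2%, 42.0% and 27.8% of all filtered rows, so the pathway as a whole was not set apart by them. Its median differences were 0.00, 0.22, -0.12 and 0.10.

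The counts by list below are for the cancer control against the normal control, where 20.6% of all filtered rows were past 2-fold higher and 25.7% lower, 46.2% in all, and no list was tested against that background. Of the 13 other death ligands and receptors, 5 were past 2-fold higher and 4 lower. Tnfsf10, which encodes the ligand TRAIL, had 677 reads in the normal control, 382 in the normal exercise, 16 in the cancer control and 72 in the cancer exercise library. Its difference was -4.95 (-5.85 to -4.33) in the resting tumor comparison. Tnfrsf23, a decoy TRAIL receptor, and its relative Tnfrsf26 lay the other way there, at 4.04 (3.43 to 4.86) and 3.58 (3.12 to 4.14).

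Adaptors, kinases and regulators of the receptor complex held 11 genes, with 1 higher and 1 lower past 2-fold in the same comparison. Mlkl, the pore-forming protein of necroptosis, had 31 reads in the normal control and 182 in the cancer control, a difference of 2.88 (2.37 to 3.52). Faim2, an inhibitor of FAS signalling, had 110 and 1 reads there, a difference of -5.45 with a read ratio interval of -11.73 to -3.91. Tnfaip3, which restrains NF-kB, had 197 reads in the cancer exercise and 54 in the normal exercise library, a difference of 2.19 (1.77 to 2.68).

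Among the caspases other than Casp8, 8 of 9 passed the filter, and 4 were past 2-fold higher and none lower (20.6% and 25.7% of all rows), with a list median of 1.04. The genes named by the rule were the inflammatory caspase genes Casp1 and Casp4 and their neighbour in the family Casp12, and not executioner caspases. Casp1 had 66 reads in the normal control, 95 in the normal exercise, 635 in the cancer control and 120 in the cancer exercise library. Casp12 had 236, 203, 1113 and 139 reads and Casp4 had 25, 64, 175 and 66. All 3 were highest in the cancer control, where Casp8 was not.

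Of the pro-survival relatives other than the 3 above, 5 passed the filter, and 4 were lower and none higher past 2-fold (25.7% and 20.6% of all rows), with a median of -1.55. These 4 include 3 near-identical copies, Bcl2a1a, Bcl2a1b and Bcl2a1d, and so are not 4 separate observations. Bcl2l2, which encodes BCL-W, had 183 reads in the normal control and 29 in the cancer control, a difference of -2.25 (-2.91 to -1.72). Bcl2a1a and Bcl2a1d were at -2.04 and -1.55, and reads may be split among the copies, so their separate values are uncertain. None of Bcl2l2, Bcl2a1a and Bcl2a1d was past 2-fold in exercise without tumor, and all 3 were between 1.33 and 1.37 higher in the cancer exercise than in the cancer control library.

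Effectors and related BCL2 family genes had 3 of 5 higher and 2 of 5 lower past 2-fold in the resting tumor comparison, against 46.2% of all rows in either direction. Bok was at 2.80 (2.46 to 3.18), Bax at 1.14 (0.69 to 1.63) and Bak1 at 1.07 (0.75 to 1.41). Bax also stood at 1.74 (1.17 to 2.41) in the tumor comparison among runners, where Bak1 was at -0.14 (-0.47 to 0.18). BH3-only genes other than Bcl2l11 had 3 of 9 higher and 3 of 9 lower at rest, with Bnip3, a hypoxia-responsive gene, at 2.42 (2.31 to 2.53), Bik at -2.78 (-4.00 to -1.96) and Pmaip1, which encodes NOXA, at -1.94 (-2.46 to -1.49).

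The inhibitor of apoptosis list had 9 of 10 genes past the filter, of which 3 were higher and 1 lower past 2-fold at rest. Birc5, which encodes survivin and serves mitosis as well, had 54 reads in the normal control, 115 in the normal exercise, 2242 in the cancer control and 499 in the cancer exercise library. The 13 proliferation markers summed to 866.1, 1205.3, 12049.0 and 4168.3 in the same order. Xiap, a direct caspase inhibitor, had 2584, 2502, 808 and 889 reads, so its tumor-bearing libraries were both lower, as for Cflar. Birc3 was at 1.15 (0.86 to 1.46) for exercise with tumor and at 1.22 (0.93 to 1.51) for tumor with exercise.

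Apoptosome and mitochondrial factors had 1 higher and 1 lower of 8 past 2-fold at rest. Htra2, a mitochondrial protease, was at 2.13 (1.93 to 2.34) and Diablo, which counters inhibitor of apoptosis proteins, at -1.15 (-1.43 to -0.89). Apaf1, the scaffold of the apoptosome, was at -1.91 (-2.50 to -1.41) for exercise with tumor.

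**Figure D3:**
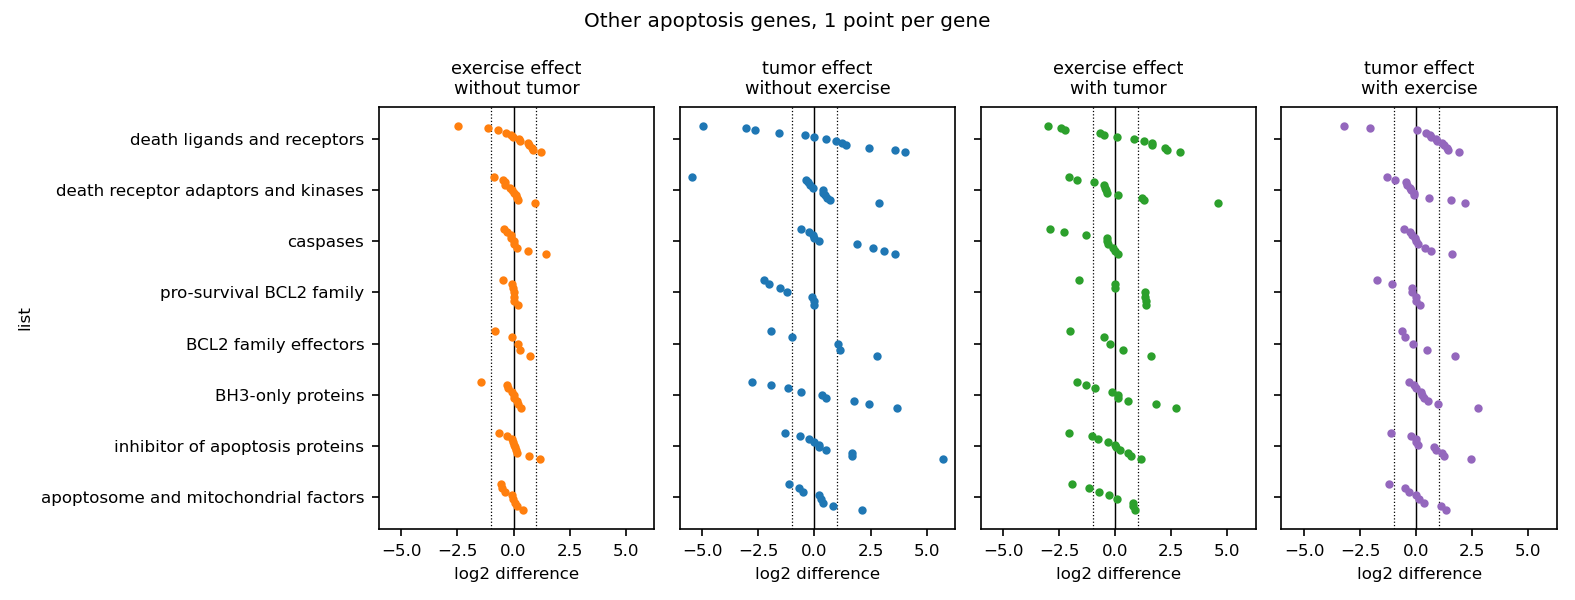
Log2 differences of the 72 other apoptosis genes, by list, in the 4 comparisons, with 1 point per gene, genes below the filter included. The points spread widely in both directions in the comparisons that involve the cancer control, as the 20 higher and 16 lower genes of the resting tumor comparison show.

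**Figure D4:**
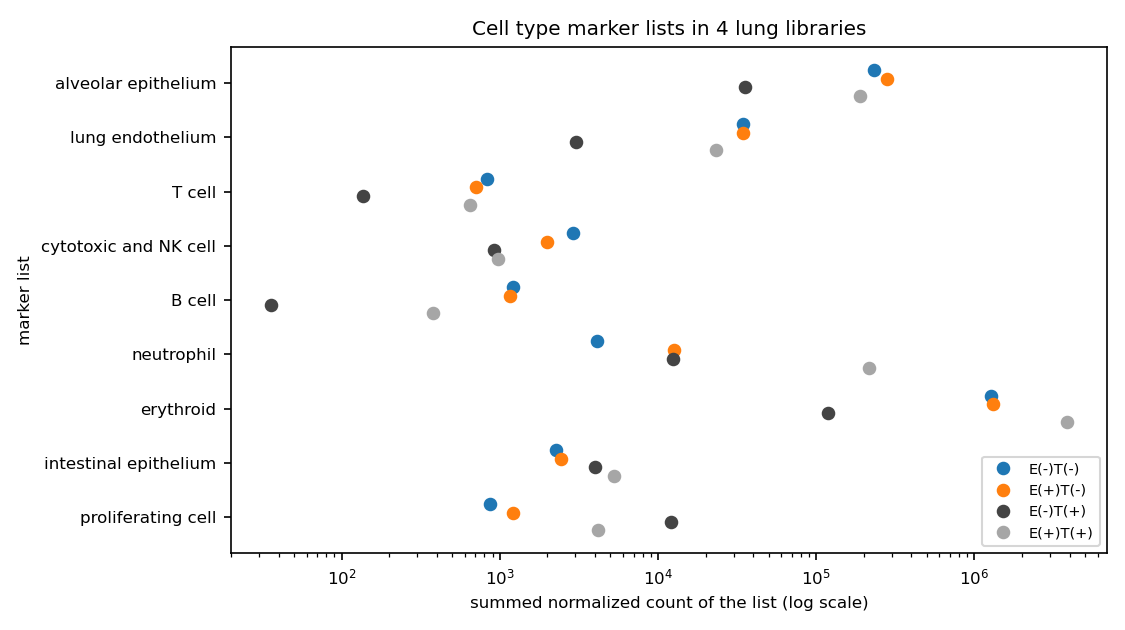
Summed normalized counts of the 9 marker lists in the 4 libraries, on a log axis. The cancer control library is lowest for the lung, lymphocyte and erythroid lists, and the cancer exercise library is highest for neutrophil markers at 214774.6.

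The genes whose pattern over the 4 libraries was closest to that of Cflar were sought among 11215 rows with a mean normalized count of at least 50, by the Euclidean distance of log2 levels centred on each gene's mean. They were Saysd1 (distance 0.137), Kcnq1ot1, Zfp407, Kctd2 and Dynll1 (0.164). Saysd1 had 155 reads in the normal control, 187 in the normal exercise, 59 in the cancer control and 44 in the cancer exercise library. With a Pearson correlation in place of the distance, 0 of these 5 were named again, so with only 4 libraries the choice of neighbours depended on the measure.

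For Bcl2l15 the closest were BC100530 (distance 1.029), Stfa2 (1.126), BC117090, Stfa3 and Stfa1, all of the stefin A group of cysteine protease inhibitors, whose close copies may split reads. BC100530 had 9 reads in the normal control, 23 in the normal exercise, 439 in the cancer control and 2893 in the cancer exercise library. Here too 0 of the 5 were named by Pearson correlation.

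**Figure D5:**
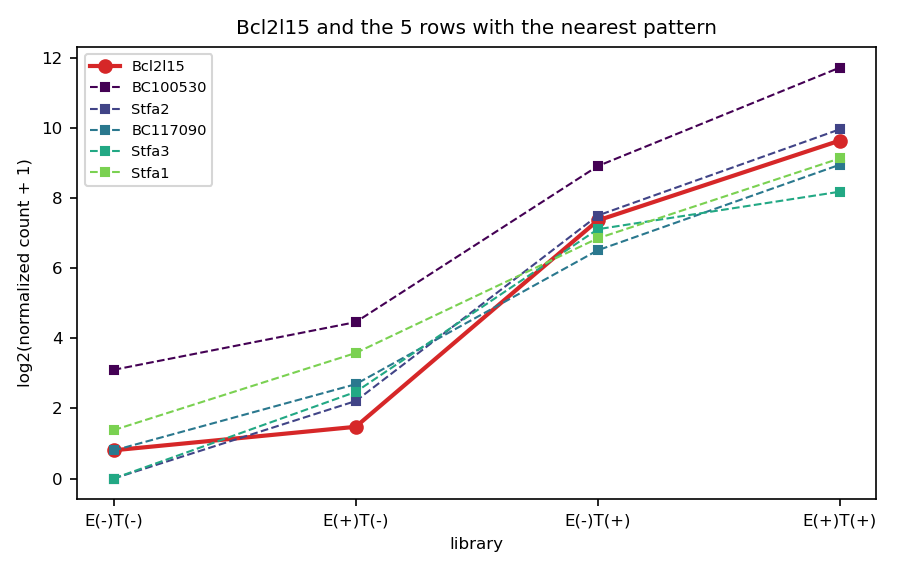
Levels, as log2(normalized read count + 1), of Bcl2l15 and the 5 genes closest to it in pattern, over the 4 lung libraries. Each line is 1 gene, and all are lower in both T(-) than in both T(+) libraries, with their highest level in E(+)T(+).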

How the data were processed

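Lung RNA was sequenced in 4 libraries, 1 per group. Per the labels and the study's methods, the authors used a 3′ mRNA kit (QuantSeq), Bowtie2, bedtools coverage, build mm10 and quantile normalization in edgeR. Versions, annotation and use of strand are not given in the sources used here. The deposited values are log2(normalized count + 1) for 23282 rows.

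Whole reads were recovered by inverting a negative binomial quantile adjustment, modelled on that normalization (dispersion 0.372) written in Python 3.11.15 with numpy 2.4.6, scipy 1.17.1 and pandas 2.3.3, and tested on simulated data. All values (100%) matched within 0.001, and 94.6% were resolved to 1 read. Totals were 13017470, 12780290, 9354511 and 13368126 reads in the order normal control, normal exercise, cancer control, cancer exercise.

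Differences were taken between deposited values, with 95% exact intervals of the read ratio. With 1 library per group no test was run. Rows averaging 4 or more normalized reads were kept, and the limit was 2-fold. Members and lists were chosen with earlier results of these data known. Up to 3 genes per list were named, those with the largest absolute difference in any comparison at a mean of at least 50, and the 5 genes closest in pattern to Cflar and to Bcl2l15. Positions are from GENCODE M21 and start regions from RefSeq (GRCm38.p6), in which all 9 genes were matched. Alternatives were a pseudocount of 4, no filter, a minimum of 20, 3 scalings and Pearson correlation. Figures were drawn with matplotlib 3.10.9.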

Additional observations from a re-analysis of the deposited data

Results flagged for a closer look

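Among the 9 genes, 2 had differences of opposite sign under the same contrast in the other pair of libraries with both counting intervals clear of 0. For Casp8, exercise gave 0.58 without tumor and -0.56 with tumor. For Fas, the tumor gave -0.95 at rest and 1.31 among runners. Opposite intervals of this kind were found for 17.0% of the 15164 filtered rows in the exercise contrast and for 13.0% in the tumor contrast. With 1 library per group, the difference between the contrasts was not tested.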

How the results depend on the processing

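The 36 differences of the 9 genes were recomputed with a pseudocount of 4 and with 3 other scalings, giving 144 values, of which 142 kept their sign and 120 stayed inside the exact interval. Scaling by read totals changed the sign of Bcl2 for tumor without exercise (-0.07 to 0.04) and of Bcl2l1 for exercise with tumor (0.32 to -0.29). The same scaling moved the median of all filtered rows to -0.59 for exercise with tumor and -0.41 for tumor with exercise, and totals without hemoglobin genes moved it to -0.13 for tumor without exercise. In all, 10 values crossed the 2-fold limit, among them Mcl1 for exercise with tumor (0.57), Fas for tumor with exercise (0.90) and Casp8 for tumor with exercise (-1.37), Casp8 and Bcl2l11 for exercise with tumor (both -1.16) and Bcl2l11 for tumor without exercise (1.03), all by read totals. Without hemoglobin genes Fas for tumor without exercise was at -1.04 and Bcl2l1 at 0.97. The number of genes past 2-fold for exercise without tumor was 0 at a minimum mean of 20, which drops Fasl from the rows counted. In the other 3 comparisons the count of 4 ranged from 3 to 5 over the alternatives. No paired analysis was possible because each group has 1 library, and no library could be left out. Depth limits Fasl in both tumor-bearing libraries and Bcl2l15 in both tumor-free ones.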
